A study of Homo sapiens with 20 samples.

Results

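T47D cells, an established luminal breast cancer line that carries oestrogen and progesterone receptors, were depleted of CBX3 by siRNA and treated with progestin, and the expression levels they reached after 6 h were set against those of control cells at the same time. The members are the 4 RNA-seq libraries of 2 groups, chosen by their labels from 20 samples: si-CBX3 at 6 h of 10 nM R5020 (2 libraries) and si-control at 6 h of 10 nM R5020 (2 libraries). R5020 is a synthetic progestin, and before it the cells of all groups had been kept without steroid hormones and then without serum, per the labels of every library but the first of si-CBX3 at 0 h, which give no protocol. For comparison, si-FOXA1 and si-BRG1 libraries at 6 h of R5020 (2 each) and si-CBX3 and si-control libraries at 0 h, without R5020 (2 each), were used; BRG1 is the protein of SMARCA4. The sources used here do not give the siRNA sequences or the time between transfection and hormone, and a single siRNA label stands for each target.

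CBX3 encodes HP1 gamma, one of 3 mammalian HP1 proteins, whose chromodomain binds histone H3 methylated at lysine 9 and which is found both in silent heterochromatin and over the bodies of active genes. In hormone-responsive breast cells HP1 proteins take part in repression complexes, and the study's title places progestin-dependent repression beside BRG1 and the linker histone H1.2. A level after hormone combines what the knockdown did before hormone with what it did to the response, so the 0 h values stand beside the 6 h values below.

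The 2 si-CBX3 libraries held 50017255 and 53954640 gene-assigned fragments and the 2 si-control libraries 58553148 and 58296067. The median gene differed between replicates by 0.0977 log2 units in si-CBX3 and by 0.117 in si-control. On the first principal component of the 16 siRNA libraries, which held 49.5% of the variance, the si-CBX3 libraries lay at -37.15 and -31.58 and the si-control libraries at -66.19 and -64.92. The labels do not say whether the 2 replicates of a group were separate cultures; the p-values rest on the spread between the 2 libraries of each of 8 siRNA groups, and that spread may be technical. Per the file headers the si-CBX3 and si-FOXA1 files were counted with 1 thread and the si-control and si-BRG1 files with 8; the siRNA and the counting command cannot be told apart between si-CBX3 and si-control.

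The siRNA target was strongly depleted. CBX3 (ENSG00000122565.14, hg19 chr7:26240782-26252976, + strand) stood at 3.07 and 3.74 CPM (counts scaled to library size with TMM factors, the trimmed mean of M values) in si-CBX3 libraries after 6 h of R5020, against 258 and 265 CPM in si-control libraries. The log2 fold change was -6.26 (SE 0.12), a 76.7-fold reduction (edgeR quasi-likelihood test, Benjamini-Hochberg adjusted p = 1.71e-15), and the groups were far apart. It was not reduced under the other siRNAs, with 381 and 330 CPM in si-FOXA1 libraries and 279 and 322 CPM in si-BRG1 libraries at 6 h. Of the other HP1 genes, CBX1 (HP1 beta) had 169 and 181 CPM in si-CBX3 libraries and 140 and 144 CPM in si-control libraries, a log2 difference of 0.30 (adjusted p = 0.00677 by edgeR) whose call was lost without si-CBX3 replicate 2 (adjusted p = 0.0705) or without si-control replicate 1 (0.0514). CBX5 (HP1 alpha) had 294 and 309 CPM in si-CBX3 libraries and 359 and 328 CPM in si-control libraries, a log2 difference of -0.19 that did not pass (adjusted p = 0.14) except in a fit to the 4 libraries alone (0.00939) or without a filter on low counts (0.019).

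Of 18806 genes tested across the 16 siRNA libraries, 9244 (49.2%) differed between si-CBX3 and si-control after 6 h of R5020 at an adjusted p below 0.05 (edgeR), 4652 (24.7%) higher and 4592 (24.4%) lower in si-CBX3. Those past 2-fold were 1350 higher (7.18%) and 1090 lower (5.8%). The median log2 difference over all genes was 0.0166, with quartiles of -0.388 and 0.464. In 14254 genes (75.8%) the 2 si-CBX3 libraries did not overlap the 2 si-control libraries, so a lack of overlap is the usual case here and is read as little. These shares are the background for every count below.

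**Figure D1:**
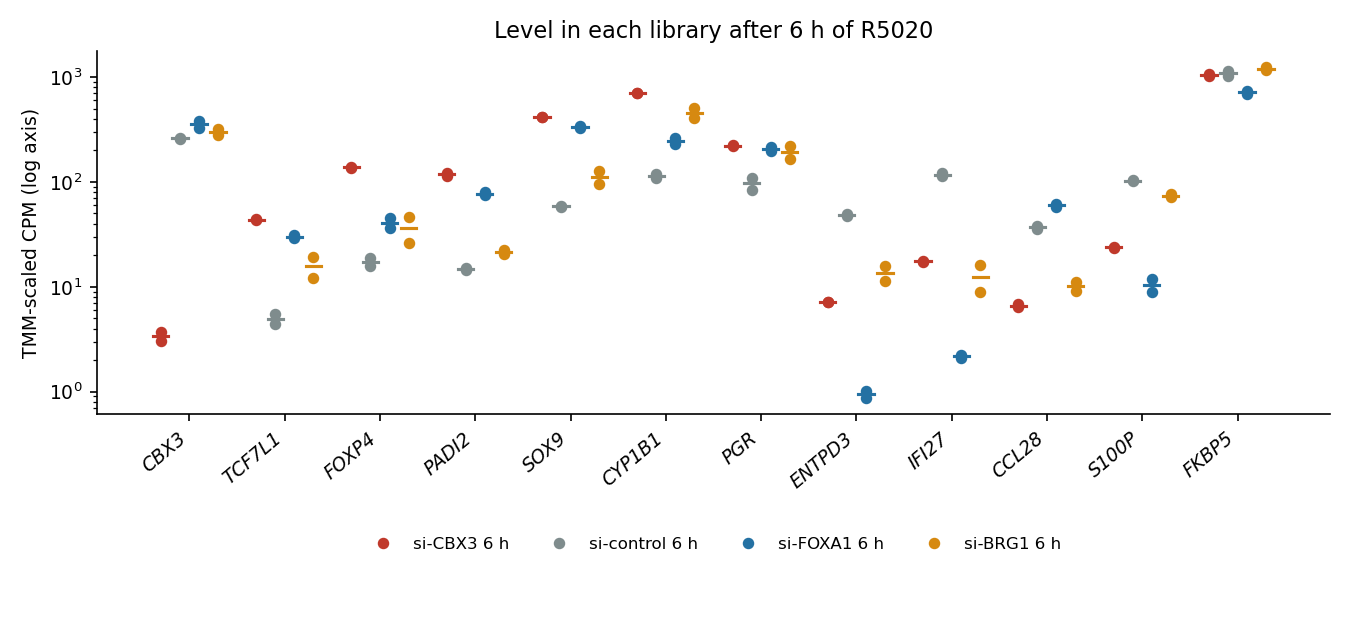
TMM-scaled CPM (vertical log axis) of 12 named genes in each library after 6 h of R5020, with points for the 2 libraries of a group and a line at their mean. CBX3 lies at 3.07 and 3.74 CPM in si-CBX3 and at 258 or more in the other 3 siRNA groups, while FKBP5 lies at 1020 and 1060 CPM in si-CBX3 and at 1140 and 1030 CPM in si-control.

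The 12 largest rises among well-expressed genes in si-CBX3 cells included 3 transcription factors. TCF7L1, a TCF family transcription factor that often represses Wnt target genes, had 43.9 and 43.0 CPM in si-CBX3 libraries against 4.38 and 5.52 CPM in si-control libraries, a log2 difference of 3.13 (SE 0.17, adjusted p = 6.73e-10, edgeR). FOXP4, a forkhead transcription factor, had 140 and 136 CPM in si-CBX3 libraries and 15.8 and 18.8 CPM in si-control libraries (log2 3.0, SE 0.19). SOX9, a developmental transcription factor, had 419 and 415 CPM in si-CBX3 libraries and 59.5 and 57.7 CPM in si-control libraries (log2 2.83, SE 0.10). In each of these the replicates of a group lay close together and the groups were separated several-fold.

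PADI2, a peptidylarginine deiminase that converts arginine to citrulline in histones and other proteins, had 122 and 114 CPM in si-CBX3 libraries and 15.0 and 14.4 CPM in si-control libraries (log2 3.0, SE 0.08). CYP1B1, a cytochrome P450 that hydroxylates oestrogens, had 700 and 701 CPM in si-CBX3 libraries and 108 and 120 CPM in si-control libraries (log2 2.62, SE 0.11). The remaining ones were RRBP1, a ribosome-binding protein of the endoplasmic reticulum (log2 2.86), LTBP2, a latent TGF-beta binding family protein (2.83), the opioid growth factor receptor gene OGFR (2.75), the vitamin C transporter SLC23A1 (2.66), the oxysterol-binding protein gene OSBPL5 (2.59) and ANKRD35 (2.54). BCAN, a brain proteoglycan gene, met the same rule on counts near the detection limit, with 0.481 and 0.694 CPM in si-CBX3 libraries and 0.132 and 0 CPM in si-control libraries (log2 3.12); leaving out one si-control library at a time moved that value to 2.14 or 8.19, and DESeq2 did not call it (adjusted p = 0.0645). BCAN had 24.2 and 30.5 CPM in si-FOXA1 libraries at 6 h, which enter the mean level used to select it.

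The largest falls after CBX3 itself included 4 genes of the interferon-stimulated list. ENTPD3, an ectonucleotidase, had 7.19 and 7.17 CPM in si-CBX3 libraries and 47.1 and 49.5 CPM in si-control libraries, a log2 difference of -2.75 (SE 0.12, adjusted p = 1.10e-10, edgeR). CCL28, a mucosal chemokine of epithelia, had 6.79 and 6.36 CPM in si-CBX3 libraries and 38.4 and 35.8 CPM in si-control libraries (log2 -2.49, SE 0.10). S100P, a calcium-binding protein, had 23.6 and 24.0 CPM in si-CBX3 libraries and 104 and 101 CPM in si-control libraries (log2 -2.11, SE 0.12). IFI27, an interferon-induced gene, fell by 2.75 on the log2 scale, APOBEC3B, a cytidine deaminase that acts on DNA, by 2.19, TRANK1 by 2.15, the death ligand gene TNFSF10 (TRAIL) by 2.07 and FAM111B by 2.02. OASL, OAS1 and IFIT3, also interferon-stimulated, completed the set with falls of 2.07, 2.00 and 1.98.

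Genes of mitosis were lower almost without exception. Of 39 mitosis genes tested 38 were called lower in si-CBX3 and 0 higher, against 24.4% and 24.7% of all genes, and the list's median log2 difference was -1.48. Their summed level was 755 and 815 CPM in si-CBX3 libraries and 1750 and 1890 CPM in si-control libraries, so the groups did not overlap. ANLN, a scaffold of the cytokinetic ring, had 34.9 and 37.1 CPM in si-CBX3 libraries and 124 and 132 CPM in si-control libraries (log2 -1.83, SE 0.09, adjusted p = 3.99e-10, edgeR). CCNB1, the cyclin that drives entry into mitosis, had 33.3 and 35.7 CPM in si-CBX3 libraries and 93.6 and 98.9 CPM in si-control libraries (log2 -1.48, SE 0.08). The kinase PLK1 fell by 1.70, the spindle kinesin KIF2C by 1.86, the anaphase activator CDC20 by 1.65, the spindle midzone protein PRC1 by 1.31 and the topoisomerase TOP2A by 1.66. Among the members that differed least were SMC4 (log2 -0.53, adjusted p = 0.00338, but 0.0501 without si-CBX3 replicate 1) and MKI67, a proliferation antigen gene, with 5.48 and 9.06 CPM in si-CBX3 libraries and 8.54 and 12.4 CPM in si-control libraries (log2 -0.52, adjusted p = 0.318). MKI67 did pass in a fit to the 4 libraries alone (log2 -0.52, adjusted p = 0.0322, edgeR) and without a filter on low counts (log2 -0.54, adjusted p = 4.9e-06). In bulk RNA fewer cells in a phase of the cycle and less RNA per cell cannot be told apart.

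DNA replication genes followed the same direction with smaller differences. Of 42 tested, 40 were lower, 0 higher, with a median log2 difference of -0.88, and the summed level was 1250 and 1270 CPM in si-CBX3 libraries and 2260 and 2430 CPM in si-control libraries. The MCM helicase subunits, which unwind DNA at replication forks, fell together: MCM2 had 59.3 and 58.8 CPM in si-CBX3 libraries and 142 and 156 CPM in si-control libraries (log2 -1.34, SE 0.07, adjusted p = 5.18e-10, edgeR), and MCM7, MCM5 and MCM3 fell by 1.27, 1.17 and 1.08. E2F2, a transcription factor that activates replication genes, had 3.30 and 3.66 CPM in si-CBX3 libraries and 11.2 and 11.5 CPM in si-control libraries (log2 -1.70, SE 0.10). The 2 members that did not pass were TIPIN, a fork protection factor (log2 -0.17), and POLE, the catalytic subunit of polymerase epsilon (log2 -0.10).

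Interferon-stimulated genes, which encode antiviral effectors and sensors, were also lower. Of 42 tested, 34 were called lower and 0 higher, with a median log2 difference of -1.25. The list summed to 2600 and 2520 CPM in si-CBX3 libraries and 5080 and 4650 CPM in si-control libraries. IFIT1, an RNA-binding antiviral protein, had 68.6 and 68.6 CPM in si-CBX3 libraries and 257 and 247 CPM in si-control libraries (log2 -1.88, SE 0.29, adjusted p = 5.27e-05, edgeR). ISG15, a ubiquitin-like modifier, had 33.9 and 25.8 CPM in si-CBX3 libraries and 112 and 97.1 CPM in si-control libraries (log2 -1.80, SE 0.32). RSAD2 (viperin) fell by 1.93, the exonuclease ISG20 by 1.92, the GTPase GBP1 by 1.63 and the transcription factor IRF1 by 1.39. MX1 had a log2 difference of -0.93 (adjusted p = 0.00865), not called without si-CBX3 replicate 2 (0.0598) or without si-control replicate 1 (0.0543). BST2 (292 and 282 CPM in si-CBX3 libraries, 295 and 285 CPM in si-control libraries) and STAT2 (75.8 and 72.1 CPM in si-CBX3 libraries, 74.4 and 67.1 CPM in si-control libraries) were among the 8 members that did not pass.

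**Figure D2:**
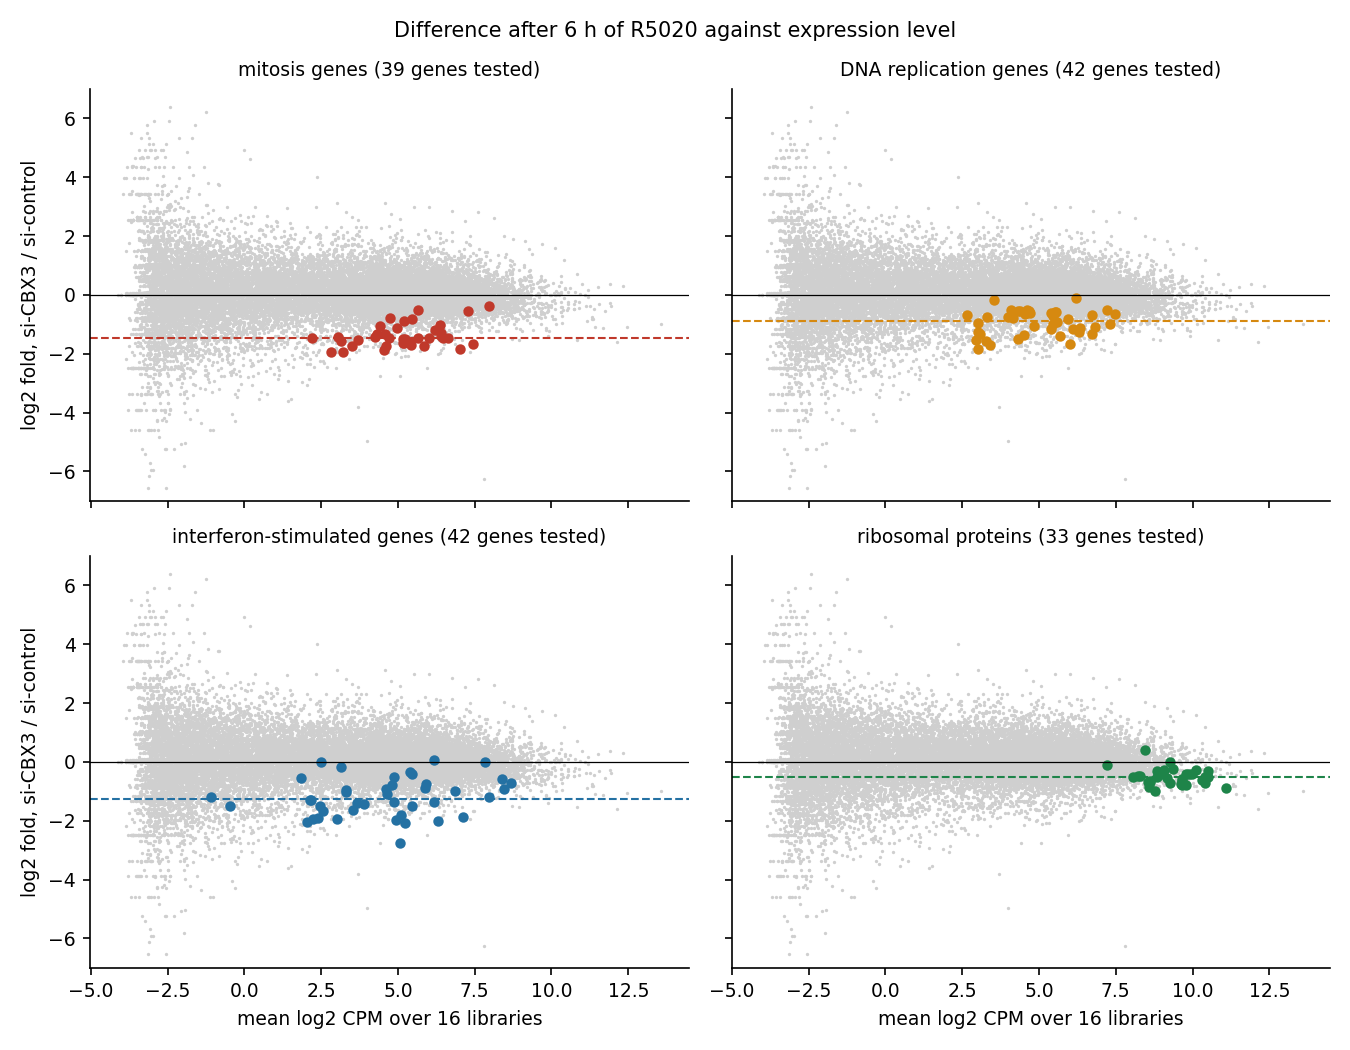
Log2 fold change of si-CBX3 over si-control after 6 h of R5020 (vertical axis) against mean log2 CPM over the 16 libraries (horizontal axis) for all 18806 genes tested (grey) and the members of 4 gene lists (coloured). Dashed lines mark list medians of -1.48 for mitosis, -0.88 for DNA replication, -1.25 for interferon-stimulated and -0.53 for ribosomal protein genes, against a median of 0.0166 over all genes.

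The promoters of these 3 groups are shown because each group is known for a short promoter motif through which its members are controlled together. The 250 bases before the annotated start were read from RefSeq (GRCh38.p14; other coordinates here are hg19) and both strands were searched. The CHR element of mitosis genes (TTTGAA, or TTCAAA on the other strand) was in 19 of 33 mitosis promoters with a sequence (57.6%), against 13.6% of all 27305 promoters and 8.77% of the 12441 promoters of tested genes. The windows of ANLN (chr7:36389612-36389861, + strand) and CDC20 (chr1:43358731-43358980, + strand) hold 2 each, in capitals, and no other motif was marked in them.
ANLN: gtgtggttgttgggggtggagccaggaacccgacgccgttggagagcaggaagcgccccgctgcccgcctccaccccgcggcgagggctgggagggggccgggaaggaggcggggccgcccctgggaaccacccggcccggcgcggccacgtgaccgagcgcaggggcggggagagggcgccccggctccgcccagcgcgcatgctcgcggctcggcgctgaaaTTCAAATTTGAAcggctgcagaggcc
CDC20: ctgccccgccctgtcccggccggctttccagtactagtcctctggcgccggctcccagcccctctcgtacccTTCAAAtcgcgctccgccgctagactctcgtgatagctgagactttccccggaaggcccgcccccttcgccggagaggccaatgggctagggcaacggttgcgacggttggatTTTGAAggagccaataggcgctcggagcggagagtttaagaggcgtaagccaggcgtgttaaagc

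A CCAAT box (CCAAT or ATTGG), which accompanies the CHR element in many such promoters and does not overlap its letters, was in 24 of the 33 mitosis promoters (72.7%), against 33.0% of all promoters and 34.7% of those of tested genes. A strict E2F site (TTTGGCGC or GCGCCAAA) was in 5 of 36 DNA replication promoters (13.9%), against 0.553% of all promoters and 0.804% of those of tested genes. It is in capitals in the windows of E2F2 (chr1:23531234-23531483, - strand) and MCM6 (chr2:135876444-135876693, - strand), a further helicase subunit, where it occurs 1 and 2 times. MCM6 had 39.0 and 37.5 CPM in si-CBX3 libraries and 81.0 and 89.2 CPM in si-control libraries (log2 -1.15, SE 0.08).
E2F2: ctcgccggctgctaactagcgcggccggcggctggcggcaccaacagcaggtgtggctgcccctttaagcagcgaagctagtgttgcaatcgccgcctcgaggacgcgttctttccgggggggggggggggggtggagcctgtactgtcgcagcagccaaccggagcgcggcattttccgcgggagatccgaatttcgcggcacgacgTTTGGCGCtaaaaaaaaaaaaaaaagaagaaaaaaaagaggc
MCM6: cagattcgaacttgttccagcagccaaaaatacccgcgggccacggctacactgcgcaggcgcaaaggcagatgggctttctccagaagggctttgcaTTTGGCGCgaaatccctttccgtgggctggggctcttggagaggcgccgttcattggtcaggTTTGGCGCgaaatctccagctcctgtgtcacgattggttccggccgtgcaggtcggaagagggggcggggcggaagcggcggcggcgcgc

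The interferon-stimulated response element (GAAA, any 2 bases, GAAA, on either strand) was in 20 of 33 promoters of interferon-stimulated genes (60.6%), against 3.07% of all promoters and 2.19% of those of tested genes. The windows of ISG20 (chr15:88638766-88639015, + strand) and GBP1 (chr1:89065209-89065458, - strand) hold it 1 time each, in capitals, on opposite strands of the window. A match is a description of letters and not a shown binding site, and the lists were chosen for their known control.
ISG20: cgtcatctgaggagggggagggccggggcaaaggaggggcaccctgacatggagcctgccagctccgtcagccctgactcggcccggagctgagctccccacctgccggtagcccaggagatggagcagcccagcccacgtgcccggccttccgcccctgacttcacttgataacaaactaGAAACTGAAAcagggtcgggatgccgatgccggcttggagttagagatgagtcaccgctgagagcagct
GBP1: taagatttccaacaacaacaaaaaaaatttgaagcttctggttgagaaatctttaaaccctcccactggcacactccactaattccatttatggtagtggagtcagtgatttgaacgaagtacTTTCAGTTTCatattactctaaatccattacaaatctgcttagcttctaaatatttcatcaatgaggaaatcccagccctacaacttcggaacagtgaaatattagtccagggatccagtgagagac

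Antigen presentation by MHC class I, which interferon also induces, was split. Of 19 tested genes 11 were lower and 4 higher, with a median log2 difference of -0.43. Against si-control at 6 h, si-FOXA1 had 15 of the 19 lower and 1 higher (median -0.52), and si-BRG1 12 lower and 2 higher (median -0.44). Set directly against si-FOXA1, si-CBX3 had 11 higher and 3 lower (median 0.33), and against si-BRG1 9 higher and 4 lower (median 0.14). B2M, the light chain of class I molecules, had 530 and 538 CPM in si-CBX3 libraries and 789 and 797 CPM in si-control libraries (log2 -0.57, SE 0.08), and the peptidase ERAP2 fell by 1.18 and the peptide transporter subunit TAP2 by 0.61. TAPBP (tapasin), which loads peptide onto class I molecules, moved the other way with 230 and 243 CPM in si-CBX3 libraries and 78.4 and 68.0 CPM in si-control libraries (log2 1.69, SE 0.11, adjusted p = 4.92e-09, edgeR), as did the chaperone CALR (log2 0.64). Fragments of the near-identical HLA genes can be split between them in counting, so their values are uncertain.

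Genes of the translation machinery and of sugar metabolism were lower by less. Of 33 ribosomal protein genes tested, 29 were lower and 1 was higher, with a median log2 difference of -0.53 and summed levels of 25500 and 23700 CPM in si-CBX3 libraries and 34700 and 36700 CPM in si-control libraries. RPSA fell by 0.98, RPLP0 by 0.89, RPS14 by 0.78, RPS18 by 0.71 and RPS19 by 0.66. RPL11, which also binds MDM2, was the exception, with 475 and 448 CPM in si-CBX3 libraries and 337 and 353 CPM in si-control libraries (log2 0.42, adjusted p = 0.00028, edgeR). Ribosomal protein genes have many processed pseudogenes, so their counts are uncertain.

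Of 26 glycolysis and hypoxia genes, 18 were lower and 2 higher, with a median log2 difference of -0.61. This list was also lower against si-control in si-FOXA1 at 6 h (17 lower, 5 higher, median -0.51) and in si-BRG1 (18 lower, 2 higher, median -0.4). LDHA, which reduces pyruvate to lactate, had 848 and 864 CPM in si-CBX3 libraries and 1890 and 1970 CPM in si-control libraries (log2 -1.17, SE 0.07, adjusted p = 1.09e-09, edgeR). The platelet phosphofructokinase PFKP fell by 1.45, hexokinase HK2 by 0.89 and PFKFB3, which makes an activator of phosphofructokinase, by 0.86, while the liver phosphofructokinase PFKL had 170 and 160 CPM in si-CBX3 libraries and 86.1 and 88.7 CPM in si-control libraries (log2 0.92). Without si-CBX3 replicate 1 or either si-control library, and by DESeq2, 1 gene of this list was called higher. Lipid synthesis was mixed: of 23 cholesterol synthesis genes 6 were higher (PMVK, log2 0.59) and 8 lower (NSDHL, -0.74; EBP, -0.62), and of 18 fatty acid and glycerolipid genes 2 were higher (FASN, the fatty acid synthase, 0.72, and its regulator SREBF1, 0.56) and 4 lower (the phosphatidate phosphatase LPIN1, -1.23).

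**Figure D3:**
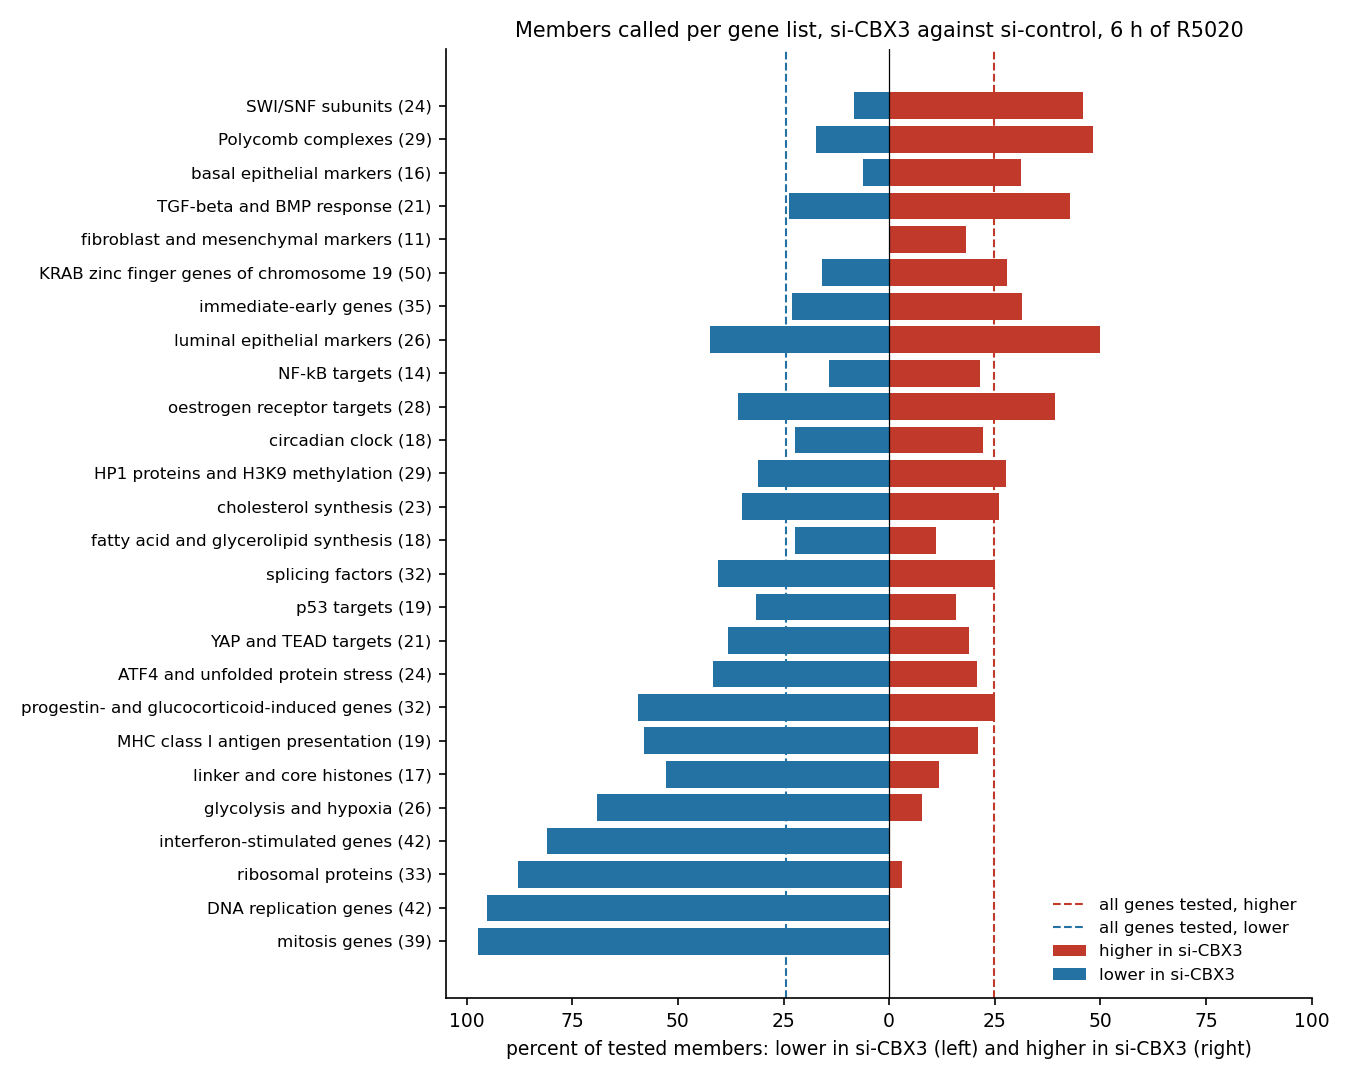
Percent of tested members called lower (bars to the left) and higher (bars to the right) in si-CBX3 against si-control after 6 h of R5020 for each gene list with at least 10 tested members, whose number is in brackets. Dashed lines mark the 24.4% of all genes called lower and the 24.7% called higher; mitosis, DNA replication, ribosomal protein and interferon-stimulated genes reach furthest to the left, and the SWI/SNF and Polycomb lists lean to the right.

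Single chromatin regulators other than HP1 moved in both directions. Among 29 genes of HP1 proteins and H3K9 methylation, CBX3 included, 8 were higher (27.6%) and 9 lower (31.0%), and the median was -0.04. These shares are near the 24.7% and 24.4% of all genes. The H3K9 methyltransferase gene SUV39H2 had 31.2 and 32.0 CPM in si-CBX3 libraries and 18.4 and 19.6 CPM in si-control libraries (log2 0.73, SE 0.08, adjusted p = 2.20e-06, edgeR), and EHMT1 and EHMT2, which encode the methyltransferases GLP and G9a, rose by 0.57 and 0.37. The H3K9 demethylase gene KDM4B rose by 0.49. LBR, a receptor of the inner nuclear membrane that binds HP1, had 51.1 and 54.6 CPM in si-CBX3 libraries and 83.5 and 82.4 CPM in si-control libraries (log2 -0.65, SE 0.09), and PPHLN1, a subunit of the silencing complex HUSH, fell by 0.42. Without si-CBX3 replicate 1, 5 members of this list were called lower rather than 9.

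Polycomb genes encode complexes that place and read repressive marks on histones H3 and H2A. More of them were higher, 14 of 29 against 5 lower, with a median log2 difference of 0.18. Against si-control at 6 h, si-FOXA1 had 17 of the 29 higher and 5 lower (median 0.38), and si-BRG1 13 higher and 2 lower (median 0.22). Set directly against si-FOXA1, si-CBX3 had 7 higher and 15 lower (median -0.18), and against si-BRG1 10 higher and 9 lower (median -0.06). The demethylase KDM2B, which brings a Polycomb complex to CpG islands, had 55.1 and 56.6 CPM in si-CBX3 libraries and 22.0 and 22.0 CPM in si-control libraries (log2 1.34, SE 0.08, adjusted p = 1.54e-09, edgeR). The chromodomain gene CBX2 rose by 0.99 and the accessory gene PHF1 by 0.73, whereas EZH2, the catalytic subunit, had 13.5 and 14.0 CPM in si-CBX3 libraries and 23.1 and 26.4 CPM in si-control libraries (log2 -0.85, SE 0.09).

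SWI/SNF genes, which encode the remodelling complex of BRG1, had 11 of 24 members higher and 2 lower, with a median of 0.20. Against si-control at 6 h, si-FOXA1 had 17 of the 24 higher and 5 lower (median 0.64), and si-BRG1 10 higher and 3 lower (median 0.15). SMARCA4 itself had 117 and 121 CPM in si-CBX3 libraries and 61.7 and 63.0 CPM in si-control libraries (log2 0.93, SE 0.18, adjusted p = 0.000481, edgeR). The alternative ATPase SMARCA2 rose by 0.86, the core subunit SMARCC2 by 0.88, BCL7A by 0.57 and BICRA, a subunit of the non-canonical complex, by 2.06, while ACTL6A, an actin-like subunit, fell by 0.63. The genes of the Polycomb and SWI/SNF lists are long, with median exon lengths of 6490 and 7139 bases against 3880 over all genes tested, and long genes were more often higher here (below). The HP1 and H3K9 list and the splicing factors, with medians of 6899 and 6895 bases, had 8 of 29 members higher and 9 lower, and 8 of 32 higher and 13 lower.

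Of 17 linker and core histone genes 2 were higher and 9 lower, with a median of -0.26. H1-2, the gene of linker histone H1.2, had 50 and 48.3 CPM in si-CBX3 libraries and 88.0 and 75.4 CPM in si-control libraries (log2 -0.73, SE 0.11, adjusted p = 2.71e-05, edgeR). H2BC5 had 36.8 and 34.3 CPM in si-CBX3 libraries and 13.4 and 12 CPM in si-control libraries (log2 1.48), and H3-3A rose by 0.46 while H3-3B, which encodes the same H3.3 protein, fell by 0.46. Histone genes are near copies of each other and many of their transcripts lack a poly(A) tail, so their values depend on the library type, which the sources used here do not give. Without si-CBX3 replicate 2 or si-control replicate 1, 5 histone genes were called lower.

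KRAB zinc finger genes of chromosome 19 lie in clusters that HP1 proteins are known to cover. Of 50 tested, 14 were higher (28.0%) and 8 lower (16%), against 24.7% and 24.4% of all genes, with a median log2 difference of -0.03. ZNF765 had 12 and 12.5 CPM in si-CBX3 libraries and 5.25 and 4.95 CPM in si-control libraries (log2 1.27, SE 0.11, adjusted p = 8.79e-08, edgeR), and ZNF845 rose by 0.86, ZNF611 by 0.66 and ZNF440 by 0.57. ZNF331, at under 1 CPM in both groups, fell by 1.81. The count of higher members dropped to 7 without si-CBX3 replicate 2 and to 6 without si-control replicate 1, the count of lower ones lay between 3 and 5 when any 1 of the 4 libraries was left out, and these paralogs can share fragments. Of 4 germline genes tested, which heterochromatin can silence, 0 were higher and 3 lower; MAGEA1 had 3.66 and 3.41 CPM in si-CBX3 libraries and 5.14 and 5.25 CPM in si-control libraries (log2 -0.56). Without si-control replicate 1, 1 germline gene was called, since PRAME and TDRD1 no longer passed.

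The progesterone and oestrogen receptors and their cofactors differed in level. PGR, the progesterone receptor, had 223 and 221 CPM in si-CBX3 libraries and 84.4 and 110 CPM in si-control libraries after 6 h of R5020 (log2 1.19, SE 0.14, adjusted p = 2.51e-06, edgeR). ESR1, the oestrogen receptor, had 75 and 76.8 CPM in si-CBX3 libraries and 92.1 and 91.0 CPM in si-control libraries (log2 -0.27, SE 0.06, adjusted p = 0.00148). The pioneer factors FOXA1 and GATA3 rose by 0.43 and 1.03, GATA3 with 659 and 658 CPM in si-CBX3 libraries and 337 and 306 CPM in si-control libraries.

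Genes that progestins and glucocorticoids induce were more often lower at 6 h. Of 32 tested, 19 were lower and 8 higher, with a median log2 difference of -0.42. In si-FOXA1 against si-control at 6 h 19 were lower and 5 higher (median -0.36), and in si-BRG1 13 lower and 5 higher (median -0.13). Set directly against si-FOXA1, si-CBX3 had 15 higher and 14 lower (median 0.09), and against si-BRG1 9 higher and 15 lower (median -0.11). FKBP5, a co-chaperone of steroid receptors and a standard progestin target, reached 1020 and 1060 CPM in si-CBX3 libraries and 1140 and 1030 CPM in si-control libraries, ranges that overlap (log2 -0.06, adjusted p = 0.525). SGK1, a kinase, had 20.3 and 22.2 CPM in si-CBX3 libraries and 32.4 and 30.1 CPM in si-control libraries (log2 -0.56, adjusted p = 0.000489). The epithelial transcription factors EHF and ELF5 fell by 0.98 and 0.71, the ectoenzyme ENPP1 by 0.96, the transcription factors KLF9, KLF15 and KLF4 by 0.84, 0.66 and 0.57, the glucose transporter SLC2A1 by 0.69 and the EGFR inhibitor ERRFI1 by 0.58. TSC22D3 (GILZ), with 230 and 218 CPM in si-CBX3 libraries and 155 and 169 CPM in si-control libraries, rose by 0.47, and F3 (tissue factor) and PHLDA1 rose by 1.03 and 0.96.

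Oestrogen receptor targets were balanced, with 11 of 28 higher, 10 lower and a median of 0.07. Single members moved far apart: TFF1, the classic oestrogen-induced secreted peptide, had 0.0209 and 0.0964 CPM in si-CBX3 libraries and 1.42 and 1.57 CPM in si-control libraries (log2 -4.59, SE 0.50, adjusted p = 1.12e-06, edgeR; -3.93 or -6.03 when a si-CBX3 library was left out), while IGFBP4, which binds insulin-like growth factors, had 224 and 210 CPM in si-CBX3 libraries and 85.1 and 89.1 CPM in si-control libraries (log2 1.32, SE 0.08). PDZK1 fell by 2.36 and cyclin D1 (CCND1) by 0.79, and OLFM1 and ABCA3 rose by 1.09 and 0.86.

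Immediate-early genes, which are transcribed within minutes of a stimulus, were also divided, with 11 of 35 higher (31.4%), 8 lower (22.9%) and a median of 0.19. Of all genes 24.7% were higher and 24.4% lower. JUNB, an AP-1 subunit, had 41.1 and 37.4 CPM in si-CBX3 libraries and 128 and 136 CPM in si-control libraries (log2 -1.75, SE 0.13, adjusted p = 2.10e-08, edgeR), whereas JUND rose by 0.83, JUN by 0.44 and the matrix protein gene CCN1 by 0.73. MCL1, a survival factor, fell by 0.70 and the phosphatase gene DUSP1 by 0.46. FOS had 1.67 and 1.43 CPM in si-CBX3 libraries and 1.13 and 0.948 CPM in si-control libraries, a difference (log2 0.57, adjusted p = 0.016) that was not called without si-CBX3 replicate 1 (0.122) or without si-control replicate 2 (0.123).

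Luminal markers were abundant in both groups, as the label of the line has it. The 26 luminal markers summed to 17700 and 17300 CPM in si-CBX3 libraries and 18200 and 18100 CPM in si-control libraries, with 13 members higher, 11 lower and a median of 0.18. KRT8 and KRT19 (keratins of simple epithelia) fell by 0.74 and 0.56, KRT18 rose by 0.31 and the adhesion gene EPCAM by 0.50. The AP-2 transcription factor gene TFAP2B had 5.90 and 5.78 CPM in si-CBX3 libraries and 0.434 and 0.284 CPM in si-control libraries (log2 4.01, SE 0.19, adjusted p = 2.20e-10, edgeR) and TFAP2A had 115 and 121 CPM in si-CBX3 libraries and 46.0 and 38.6 CPM in si-control libraries (log2 1.48). MUC1, an apical mucin, had 1540 and 1450 CPM in si-CBX3 libraries and 470 and 437 CPM in si-control libraries (log2 1.72), and the secreted disulfide isomerase genes AGR3 and AGR2 fell by 1.87 and 0.98.

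Markers of other cell types were measured as well. The 19 basal epithelial markers summed to 467 and 463 CPM in si-CBX3 libraries and 471 and 439 CPM in si-control libraries (of 16 tested 5 higher, 1 lower, median 0.23), with FOXC1 higher by 1.12, CDH3 by 0.55, ITGA6 by 0.52 and LAMB3 by 0.94, and EGFR lower by 0.67. The 18 fibroblast and mesenchymal markers summed to 112 and 109 CPM in si-CBX3 libraries and 95.7 and 97.9 CPM in si-control libraries (of 11 tested 2 higher, 0 lower; 1 higher without si-CBX3 replicate 1 and 1 lower without si-control replicate 2). ACTA2 (smooth muscle actin) had 14.6 and 15.0 CPM in si-CBX3 libraries and 3.49 and 3.58 CPM in si-control libraries (log2 2.06), and COL1A1 had 38.4 and 35.3 CPM in si-CBX3 libraries and 38.8 and 40.7 CPM in si-control libraries, which did not pass. The 14 leukocyte markers summed to 2.53 and 1.97 CPM in si-CBX3 libraries and 1.81 and 1.57 CPM in si-control libraries (of 7 tested 1 higher, 1 lower), and PTPRC and CD3E were at 0 in all 4 libraries. The 8 endothelial markers (of 4 tested 2 higher, 1 lower) summed to 32.1 and 29.1 CPM in si-CBX3 libraries and 13.1 and 13.7 CPM in si-control libraries, nearly all of it ENG, a TGF-beta co-receptor (30.0 and 27.5 CPM in si-CBX3 libraries, 10.5 and 11.0 CPM in si-control libraries); CDH5, which defines endothelium, was at 0.0836 and 0.0193 CPM in si-CBX3 libraries and 0 in both si-control libraries, and its call was lost under 8 of 9 alternatives. The part of cells of other types in any result was not tested.

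Signalling lists held members that moved in both directions. For TGF-beta and BMP response genes 9 of 21 were higher and 5 lower (median 0.09): the ligand gene TGFB1 had 2.34 and 2.29 CPM in si-CBX3 libraries and 0.548 and 0.721 CPM in si-control libraries (log2 1.87), the SMAD co-repressor SKI rose by 1.53 and LTBP3 by 1.13, and ID3, a target of BMP, fell by 1.24. Of these genes 2 were called lower without si-CBX3 replicate 2, and 3 without either si-control library. For YAP and TEAD targets 4 of 21 were higher and 8 lower (the kinase LATS2, log2 1.02; the phosphatase PTPN14, -0.86; CRIM1, -0.43), with 5 lower without si-CBX3 replicate 2. For NF-kB targets 3 of 14 were higher (TRAF1, 1.24; the call of BCL3 and NFKB2 was lost without si-CBX3 replicate 1 or si-control replicate 1) and 2 lower (BIRC3, -0.87; TNFAIP3, -0.63), a count of 4 without si-control replicate 1 or in a fit to the 4 libraries alone.

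Stress, splicing and clock lists were also divided. Of 19 p53 targets 3 were higher (XPC and RRM2B, each log2 0.77) and 6 lower (AEN, -1.06; the death receptor FAS, -0.82; SESN1, -0.59), and a fit to the 4 libraries alone called 10 lower. Of 24 ATF4 and unfolded-protein genes 5 were higher (the cystine transporter SLC7A11, 0.57) and 10 lower (asparagine synthetase ASNS, -0.70; SLC3A2, -0.62), with 2 called higher without either si-CBX3 library, 1 without si-control replicate 1, and 3 with DESeq2 size factors or no filter. Of 32 splicing factors 8 were higher (SRSF4, 0.61) and 13 lower (SRSF5, -0.71; SRSF7, -0.57; SF3B1, -0.47; U2AF2, -0.47). Of 18 circadian clock genes 4 were higher (HLF, 2.44, at under 2 CPM, and NR1D1, 0.62) and 4 lower (CIART, -1.19, and CRY2, -0.38). Each clock count is 22.2% of the list, near the 24.7% and 24.4% of all genes.

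The other knockdowns at the same time showed where si-CBX3 cells stood apart from cells that had received another targeting siRNA; these comparisons share the si-CBX3 libraries with each other and with the comparison above. Against si-FOXA1 at 6 h, 6344 genes were higher in si-CBX3 (33.7%) and 6684 lower (35.5%); against si-BRG1, 4196 were higher (22.3%) and 4151 lower (22.1%). Mitosis genes were lower in both: 38 of 39 lower and 1 higher against si-FOXA1 (median -1.40), and 39 of 39 lower against si-BRG1 (median -2.20). DNA replication genes had 37 of 42 lower and 1 higher against si-FOXA1 (median -1.04) and 42 of 42 lower against si-BRG1 (median -1.44). The gap to si-BRG1 includes a rise in si-BRG1 itself. Against si-control it had 38 of 39 mitosis genes higher (median 0.75) and 39 of 42 replication genes higher (median 0.47), with 0 lower in both lists. In si-FOXA1 against si-control 15 mitosis genes were higher and 14 lower, and 17 replication genes higher and 14 lower. The summed level of mitosis genes was 755 and 815 CPM in si-CBX3 libraries, against 2430 and 2180 CPM in si-FOXA1 libraries and 3080 and 3230 CPM in si-BRG1 libraries. ANLN, for example, was lower by 2.01 against si-FOXA1 and by 2.57 against si-BRG1 on the log2 scale.

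Interferon-stimulated and ribosomal protein genes did not stand apart in that way. Against si-FOXA1 32 of 42 interferon-stimulated genes were higher in si-CBX3 and 4 lower (median 1.37), and against si-BRG1 18 were higher and 1 lower (median 0.52), so si-CBX3 lay below si-control and above both other knockdowns. Their summed level was 2600 and 2520 CPM in si-CBX3 libraries, against 897 and 848 CPM in si-FOXA1 libraries and 1580 and 1530 CPM in si-BRG1 libraries. Ribosomal protein genes had 29 of 33 higher and 0 lower against si-FOXA1 (median 0.50), and 5 higher and 2 lower against si-BRG1 (median -0.04). Their summed level was 28300 and 21800 CPM in si-BRG1 libraries, on either side of the 25500 and 23700 CPM in si-CBX3 libraries. In the 6 h library without siRNA the median interferon-stimulated gene had 0.901 RPKM (reads per kilobase of transcript, scaled to library size), against 4.30 and 4.10 RPKM in si-CBX3 libraries and 9.60 and 8.79 RPKM in si-control libraries; that library was quantified in another way and has no replicate. The part of siRNA delivery in these levels was not tested.

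**Figure D4:**
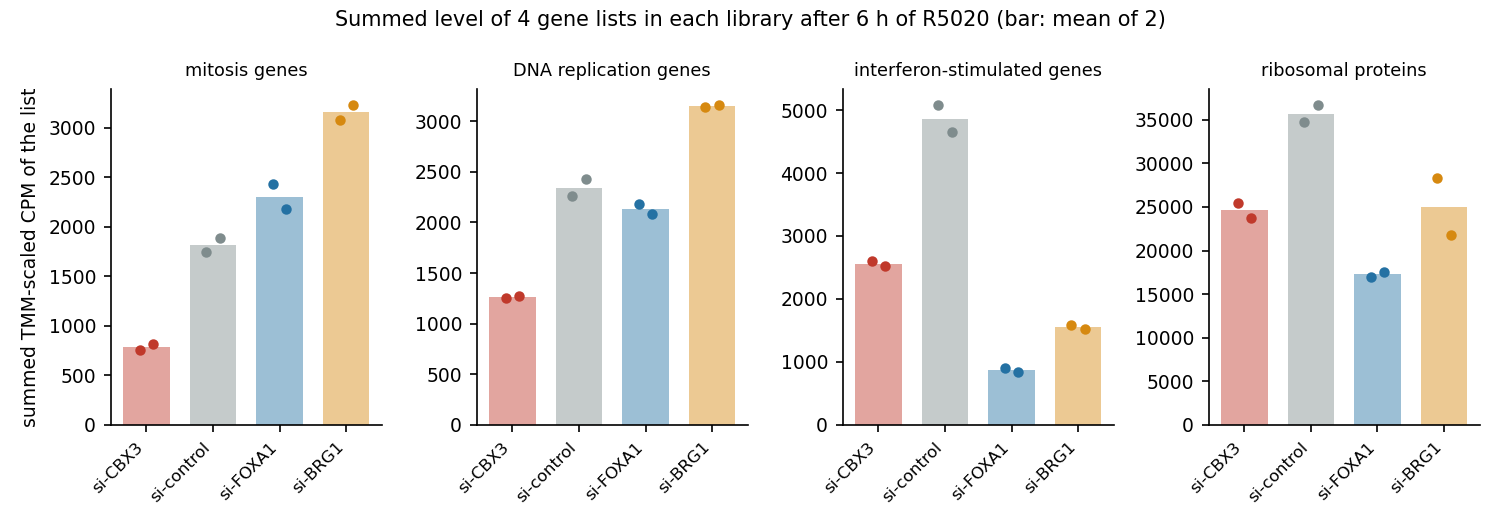
Summed TMM-scaled CPM of 4 gene lists (vertical axes from 0) in the 2 libraries of each siRNA group after 6 h of R5020, with bars at the mean. si-CBX3 is lowest of the 4 groups for mitosis (755 and 815 CPM) and DNA replication (1250 and 1270 CPM), and lies between si-control and the other knockdowns for interferon-stimulated genes.

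Single genes set the knockdowns apart as well. Among the largest rises in si-CBX3 against si-FOXA1 were SRARP, with 30.6 and 28.6 CPM in si-CBX3 libraries and 0.428 and 0.366 CPM in si-FOXA1 libraries (log2 6.22), ISG15 (4.68), FMOD (4.47), the corticosteroid-binding globulin gene SERPINA6 (4.45) and GNMT (4.41). Against si-control, SRARP and ISG15 were lower in si-CBX3 (log2 -1.4 and -1.8), and GNMT did not differ by the test (-0.13). Besides CBX3, the largest falls were CENPE (-5.79), BCAN (-5.53), the keratin gene KRT15 (-5.42), MTND6P4 (-5.17), a copy of a mitochondrial gene whose counts are uncertain, and CENPF (-4.64). MTND6P4 was at -5.78 without si-CBX3 replicate 2. CENPE, a kinetochore motor, had 0.146 and 0.752 CPM in si-CBX3 libraries, 2.04 and 1.54 CPM in si-control libraries and 29.0 and 22.1 CPM in si-FOXA1 libraries; its difference from si-control (log2 -1.95) was not called without si-CBX3 replicate 1 (-1.25, adjusted p = 0.0883) or without si-control replicate 1 (-1.74, 0.0513). With si-CBX3 replicate 1 or 2 left out, its difference was -5.05 or -7.43 from si-FOXA1 and -3.17 or -5.51 from si-BRG1. The si-FOXA1 libraries, where CENPE was high, enter the mean level used to select it, also as a fall against si-BRG1.

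Against si-BRG1 the largest rise was SMARCA4, the gene of BRG1, with 117 and 121 CPM in si-CBX3 libraries and 2.26 and 5.66 CPM in si-BRG1 libraries (log2 4.88; 5.72 without si-BRG1 replicate 2). BCAN (3.41; 2.26 or 8.18 without one si-BRG1 library), PADI2 (2.46), CHST1 and MTSS2 (each 2.17) and the myosin MYO18A (2.15) followed. The largest falls besides CBX3 were CENPE (-3.87), PRR11 (-3.48), CENPF (-3.37; -2.75 without si-BRG1 replicate 2), the pseudogene ZNF252P (-3.01) and ASPM, a spindle pole protein (-2.94). Of the genes that rose most against si-control, TCF7L1, FOXP4, PADI2, SOX9 and CYP1B1 were called higher in si-CBX3 than in both other knockdowns. The log2 differences were 0.53, 1.76, 0.61, 0.32 and 1.5 from si-FOXA1 and 1.46, 1.92, 2.46, 1.90 and 0.62 from si-BRG1. Each was smaller than the rise of that gene against si-control, so both other knockdowns also lay above si-control in these genes. OGFR (0.00) and OSBPL5 (-0.13) did not differ from si-FOXA1 by the test. RRBP1 and LTBP2 were lower than in si-FOXA1 (-1.05 and -0.87).

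Before hormone the same siRNAs gave the values that stand beside the 6 h levels; the 6 h and 0 h comparisons use different libraries of both groups. At 0 h 5283 genes were higher in si-CBX3 than in si-control (28.1%) and 4894 lower (26.0%). Mitosis genes had 38 lower and 0 higher at 6 h (median -1.48) and 35 lower and 0 higher at 0 h (median -1.57). DNA replication genes had 40 lower at 6 h (median -0.88) and 37 lower at 0 h (median -0.80), interferon-stimulated genes 34 lower at 6 h (-1.25) and 38 lower at 0 h (-1.51), and ribosomal protein genes 29 lower at 6 h (-0.53) and 30 lower at 0 h (-0.62). The 2 si-control libraries at 0 h stood apart in interferon-stimulated genes, IFIT1 with 739 and 315 CPM.

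The difference between the 6 h and 0 h knockdown effects was tested for each gene in the same fit, and 870 genes were higher (4.63%) and 820 lower (4.36%) at 6 h relative to 0 h. The 1690 calls fell in number to 996 or 830 without si-CBX3 replicate 1 or 2 at 6 h, to 1081 or 841 without si-CBX3 replicate 1 or 2 at 0 h, to 969 without si-control replicate 2 at 6 h and to 1053 without si-control replicate 2 at 0 h. The near-equal split was lost without si-CBX3 replicate 1 at 6 h (651 higher, 345 lower) and without si-control replicate 2 at 0 h (662 higher, 391 lower). Of the immediate-early genes, 23 of 35 were lower in this test and 1 higher, with a median of -1.23. Their knockdown difference had a median of 0.19 at 6 h and 1.47 at 0 h, where 28 were higher in si-CBX3 and 3 lower. FOS had 1.67 and 1.43 CPM in si-CBX3 libraries and 1.13 and 0.948 CPM in si-control libraries at 6 h, and 13.8 and 15.1 CPM in si-CBX3 libraries and 0.314 and 0.410 CPM in si-control libraries at 0 h. Its log2 difference between the effects was -4.75 (adjusted p = 2.49e-08, edgeR), with JUN at -1.85, DUSP1 at -2.16 and CCN1 at -2.06.

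Progestin- and glucocorticoid-induced genes had a knockdown difference with a median of -0.42 at 6 h and -0.01 at 0 h, and 15 of 32 were lower and 2 higher in the test of the difference (median -0.39). FKBP5 had 1020 and 1060 CPM in si-CBX3 libraries and 1140 and 1030 CPM in si-control libraries at 6 h, and 171 and 176 CPM in si-CBX3 libraries and 79.3 and 74.8 CPM in si-control libraries at 0 h. Its knockdown difference was -0.06 at 6 h and 1.17 at 0 h (difference -1.23, adjusted p = 6.52e-07, edgeR). EHF had a knockdown difference of -0.98 at 6 h and -0.19 at 0 h (difference -0.79, adjusted p = 0.000691). CBX3 itself had 6.80 and 6.37 CPM in si-CBX3 libraries at 0 h, and its knockdown difference was -6.26 at 6 h and -5.27 at 0 h (difference -0.99, adjusted p = 0.00042).

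**Figure D5:**
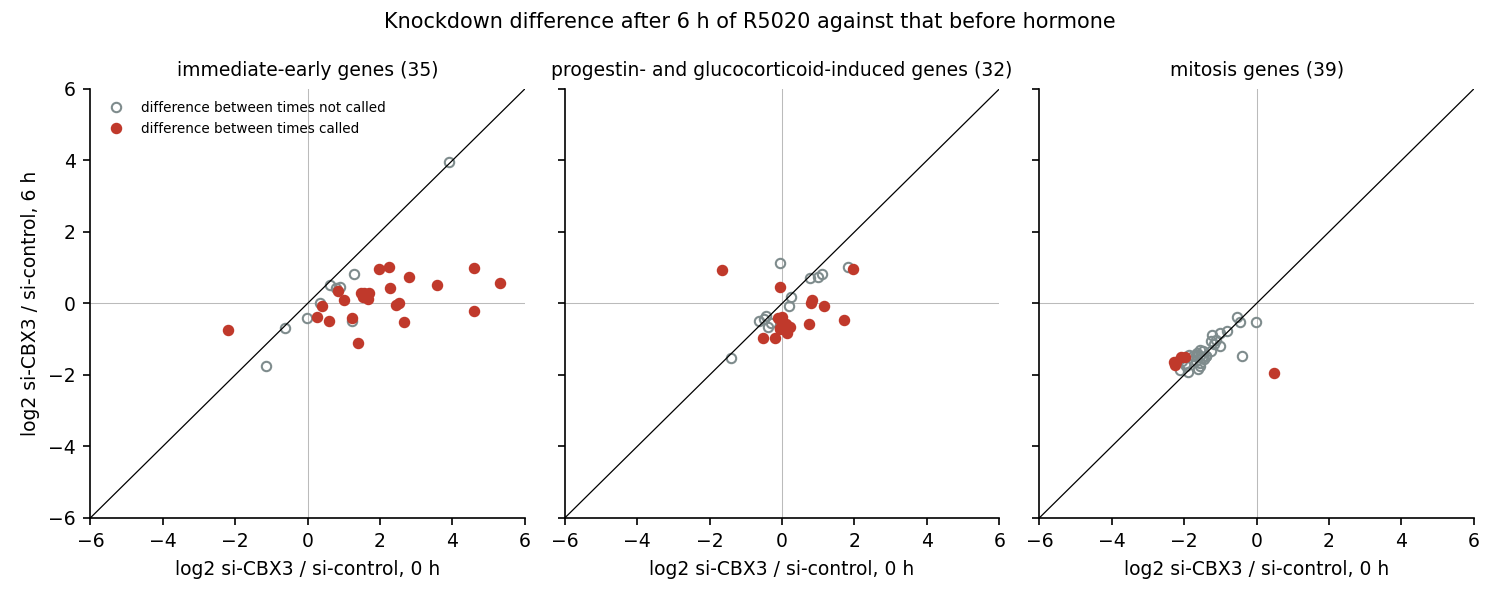
Log2 fold change of si-CBX3 over si-control after 6 h of R5020 (vertical axis) against that at 0 h (horizontal axis) for members of 3 gene lists, with the line of equal values; filled points passed the test of the difference between times. Most immediate-early genes lie below the line (medians 0.19 at 6 h and 1.47 at 0 h), while mitosis genes lie near it (-1.48 and -1.57). An immediate-early gene with a log2 difference of 7.67 at 0 h lies outside the axes.

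The difference moved with transcript length. Among the shortest genes by exon length (up to 2087 bases) 11.8% were higher and 22.2% lower in si-CBX3, with a median of -0.11, and among the longest (over 6297 bases) 34.1% were higher and 22.5% lower, with a median of 0.10. At 0 h the medians of the same sets were 0.01 and 0.10. The other knockdowns against si-control at 6 h moved with length as well. Their medians for the shortest and longest sets were -0.0 and 0.35 in si-FOXA1 and -0.05 and 0.17 in si-BRG1. Median exon lengths were 3932 bases for mitosis, 4800 for interferon-stimulated and 3617 for ribosomal protein genes, against 3880 over all genes. On chromosome 19 30.7% of 1301 genes were higher and 17.3% lower. The median of these genes against si-control at 6 h was 0.14 in si-CBX3, 0.36 in si-FOXA1 and -0.04 in si-BRG1. The part of length or chromosome in any of the results was not tested.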

How the data were processed

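RNA-seq counts were deposited per gene for 16 siRNA libraries of T47D cells; per the file headers, fragments were counted on the reverse strand with featureCounts 1.4.6-p2 against GENCODE 19 on hg19. STAR and Trimmomatic are named in the submitters' processing notes without versions. The deposited counts were fitted in R 4.3.3 by edgeR 4.0.16: TMM scaling, genes with too few counts left out (18806 of 57820 kept), 8 groups of 2 libraries, quasi-likelihood tests, two-sided, Benjamini-Hochberg adjustment over all genes tested and a threshold of 0.05. A standard error is the log2 fold change divided by the root of F. The residual degrees of freedom were 8. RPKM of the 6 h library without siRNA are the authors' deposited values per transcript, summed per gene; those of siRNA libraries were computed from counts and exon length. No gene of the mitochondrial genome had counts.

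The members and the 29 gene lists were chosen with earlier results of these data known. Named were 11 fixed genes, the 12 largest rises and 12 largest falls among called, non-overlapping genes with a mean log2 CPM of at least 3, the 6 largest each way against si-FOXA1 and si-BRG1, and up to 5 called members of a list with the lowest p. Another 30 genes, such as MKI67, IFIT1, RPL11, TFF1, FOS, KLF9, TGFB1, TFAP2A and KRT8, and the promoter gene MCM6, were named after their values were seen. Some genes that these rules pick are counted in their lists and not reported here. A simulation of si-CBX3 against si-control at 6 h covered 18806 genes. In it 96% of 100 genes changed 2-fold and 100% of 100 changed 4-fold were recovered, with 5 unchanged genes called. The changed genes were drawn from those above a minimum level and were few beside the 49.2% called in the data. Recovery at lower levels, or with so many genes changed, was not tested. Alternatives were DESeq2 1.42.0 as test and as size factors, a fit to the libraries compared alone, no filter, the replicate number as a block, and leaving out each library. BRG1 ChIP peaks were not used here.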

Additional observations from a re-analysis of the deposited data

Results flagged for a closer look

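The knockdown difference of 48 named genes after 6 h of R5020 differed from that at 0 h in the test of the difference between the times (edgeR quasi-likelihood test, adjusted p below 0.05), where 4.63% of all genes were higher and 4.36% lower. Values in brackets are the log2 knockdown difference at 6 h minus that at 0 h. Of these genes, 31 kept the call under every alternative tried. The difference was lower at 6 h for CBX3 (-0.99), FKBP5 (-1.23), TNFSF10 (-0.87), PHLDA1 (-1.01), EHF (-0.79), ELF5 (-0.65), CCN1 (-2.06), E2F2 (-0.96), BCL3 (-1.44), PFKP (-0.55), HK2 (-0.80), ID3 (-1.71), CIART (-0.99), FOS (-4.75), JUN (-1.85), DUSP1 (-2.16), ERRFI1 (-1.33), KLF9 (-0.98), KLF4 (-0.69), SLC2A1 (-0.62) and KRT19 (-0.68). It was higher at 6 h for TSC22D3 (0.52), TCF7L1 (1.51), SOX9 (0.91), CYP1B1 (0.70), SUV39H2 (0.76), LBR (0.80), IGFBP4 (0.86), CDC20 (0.62), RRM2B (0.74) and SLC7A11 (1.21). A further 17 genes lost the call under at least 1 alternative. Among them the difference was lower at 6 h for OSBPL5 (-0.45), ANKRD35 (-1.11), CENPE (-2.45), ENPP1 (-0.42), MCM3 (-0.32), FAS (-0.50), XPC (-0.46), ACSL1 (-0.31), PFKFB3 (-0.32), SRSF5 (-0.38), U2AF2 (-0.42), ITGA6 (-0.42), KLF15 (-0.87) and EHMT1 (-0.48), and higher for CBX5 (0.53), CRIM1 (0.41) and GBP1 (1.09). All other named genes of the comparison did not pass this test, which does not show that their differences were equal at the times.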

How the results depend on the processing

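Numbers of genes called between si-CBX3 and si-control at 6 h lay between 7356 and 7817 with 1 library left out and between 8877 and 10174 under the other alternatives, against 9244; DESeq2 size factors called 4348 higher and 4908 lower and moved the median of all genes to -0.0157. Leaving out 1 library gave 11560 to 12067 calls against si-FOXA1, 6321 to 8234 against si-BRG1, 8506 to 9052 at 0 h and 830 to 2029 for the difference between 6 h and 0 h (1690 in all libraries). Same-numbered libraries did not deviate together: correlations of deviations from group means lay between -0.0587 and 0.117. With the replicate number as a block 9066 genes were called at 6 h, 12930 against si-FOXA1 and 8192 against si-BRG1. The same block gave 10033 at 0 h and 1495 for the difference between times. Fits to the 4 libraries compared alone gave 13136 calls against si-FOXA1 and 5954 against si-BRG1, where the full fit gave 13028 and 8347. The si-BRG1 libraries at 6 h lay apart on the first principal component, at -53.7 and -27.43. Of 1845 values of 205 named genes under 9 alternatives, 1805 kept their direction and side of the threshold, 30 lost the call, 4 gained it and 6 changed sign, all of genes not called: with 1 library left out in turn MTND6P4 lay between -0.96 and 0.06 (0.06 without si-CBX3 replicate 1), BST2 between -0.04 and 0.01 (0.01 without si-CBX3 replicate 2 or si-control replicate 1), FKBP5 between -0.13 and 0.02 and GNMT between -0.26 and 0.01 (both positive without si-control replicate 1), and STAT2 between -0.01 and 0.14 (-0.01 without si-control replicate 2); the cause was not tested. Of 522 list counts, 39 moved by over 1.5 times. Depth limits genes near 0 CPM, such as CDH5 and TDRD1.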
